A study of Homo sapiens with 192 samples.

Results

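The 10 genes described here were the immediate early genes FOS, FOSB, FOSL1, JUN, JUNB, JUND, EGR1, IER2 and IER3, together with MYC. They form a named gene set, chosen with earlier results of these data known, and each symbol was matched to 1 of the 58243 Ensembl gene identifiers in the count tables. All 10 passed the filter on low counts, which kept 19387 genes. Both growth conditions, 2D and 3D, were sampled in 4 human colorectal cancer (CRC) cell lines named HCT116, HT29, LS174T and LS513. With 3 libraries per line and condition this gave 8 groups and 24 libraries. No treatment is named for these libraries. HT29, LS513 and LS174T were kept in DMEM and HCT116 in McCoy medium, both with fetal bovine serum, so a difference between HCT116 and the other lines and a difference between media cannot be told apart. The study grew spheroids in low attachment plates for its growth assays, but the format and duration of the 3D cultures used for RNA are not given, and neither the labels nor the methods state how long before lysis the medium was last changed or how the 3D cultures were harvested. The labels do not say whether the 3 libraries of a group came from separate cultures, so p-values measure the spread between these libraries, which may be technical.

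Immediate early genes are transcribed within minutes when a cell meets serum, a growth factor or a stress, without new protein synthesis, and their mRNAs are short-lived. FOS and JUN proteins pair into the transcription factor AP-1, while EGR1 is a zinc finger transcription factor, and the signal usually reaches these promoters through the ERK, JNK and p38 kinases and the factors SRF, ELK and CREB. MYC is an early gene of the same response, and in colorectal cancer it is also a target of Wnt signalling that stays high in most tumours.

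Library totals lay between 18723942 and 34277421 counts, and the lowest count of any of the 10 genes in a library was 37 (FOSB), above the floor of 3 counts (0.0875 to 0.160 CPM). Levels are in CPM, a gene's count scaled to a common library size, with library totals adjusted for composition by TMM. The epithelial markers EPCAM, KRT8 and KRT19 were present in all 24 libraries, from 212 CPM upward. The 8 epithelial markers summed to between 3164 and 17484 CPM, although CDX1 was at or under 3 counts in 6 libraries. The leukocyte markers PTPRC and CD3E and the fibroblast markers COL1A2, COL3A1, DCN and LUM reached at most 2 counts. In bulk RNA, fewer cells expressing a gene and less RNA per cell cannot be told apart.

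FOS (ENSG00000170345) lies on the plus strand at chr14:75278774-75282230 of GRCh38, and FOSB (ENSG00000125740) on the plus strand at chr19:45467995-45475179. FOSL1 (ENSG00000175592) lies on the minus strand at chr11:65892049-65900573. JUN (ENSG00000177606) is at chr1:58780788-58784327 on the minus strand, JUNB (ENSG00000171223) at chr19:12791496-12793315 on the plus strand and JUND (ENSG00000130522) at chr19:18279760-18281622 on the minus strand. EGR1 (ENSG00000120738) is at chr5:138465490-138469315 and IER2 (ENSG00000160888) at chr19:13150415-13154908, both on the plus strand. IER3 (ENSG00000137331) is at chr6:30743199-30744554 on the minus strand. Positions are those of GENCODE 29. Exons of 3 of the genes share bases with a gene on the opposite strand: JUNB shares 259 bases (14.2% of its exonic length) with HOOK2, IER2 shares 946 with an antisense gene that had at most 35 counts in a library, and IER3 shares 359 with IER3-AS1, which had at most 65. The libraries were strand specific, but the strand option of the counting is not named in the sources used here.

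Promoter sequences from RefSeq (GRCh38.p14), covering the 250 bases before the start site, were on hand for 7 of the 10 genes, all but FOSL1, IER3 and MYC. The letters TGACG, the core of the cAMP response element, were found on either strand in each of the 7, against 21.2% of 35116 promoters searched. The windows are shown because TGACG was the only searched motif that these genes shared, with TGACG or its reverse complement CGTCA in capitals and each read 5′ to 3′ on the strand of its gene:
FOS (chr14:75278754-75278778, plus): gttgagcccgTGACGtttacactca
FOSB (chr19:45467926-45467950, plus): aaggggcgggTGACGtaagcagggg
JUN (chr1:58784156-58784180, minus): gtctccatggTGACGggcgggcccg
JUNB (chr19:12791339-12791363, plus): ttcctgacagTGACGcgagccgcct
JUND (chr19:18281808-18281832, minus): gccgcccccaTGACGtcaacccaca
EGR1 (chr5:138465403-138465427, plus): tggccatgtaCGTCAcgacggaggc
IER2 (chr19:13150261-13150285, plus): cccccgccccCGTCAcgccaccatc
The motif began 60 to 140 bases before the RefSeq start in FOS, FOSB, JUN, JUNB and IER2. The RefSeq start lies 280 bases inside the GENCODE gene for JUN, so that the JUN window is within that gene, and 54 bases inside it for FOS. JUND held it at 3 places, of which 2 (first base at 200 and 197 before the start) overlap in the palindrome TGACGTCA, a sequence found in 1.65% of all promoters. EGR1 held it at 2 places, with first bases 135 and 66 before the start.

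Within these 250 bases, EGR1 was the only one of the 7 with a CArG box, the binding sequence of SRF. The box was searched on both strands and found in 1.16% of all promoters. Sequence further upstream was not searched. The 250 bases before its start (chr5:138465229-138465478, plus strand) are shown because both CArG boxes lie between its 2 CGTCA sites, with the boxes and sites in capitals:
EGR1 promoter: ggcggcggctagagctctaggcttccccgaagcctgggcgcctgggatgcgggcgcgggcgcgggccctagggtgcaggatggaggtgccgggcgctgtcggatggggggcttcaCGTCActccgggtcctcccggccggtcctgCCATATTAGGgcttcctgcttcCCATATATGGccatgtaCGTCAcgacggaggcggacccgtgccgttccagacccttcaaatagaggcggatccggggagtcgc
CCAAT, on either strand, was found in JUN, JUNB and JUND and in 32.0% of all promoters. The AP-1 element itself was in none of the 7 windows and in 4.2% of all. These matches describe letters in a window, and no match says nothing about a factor's binding.

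Within every line, 3D was set against 2D to ask how growth format goes with the expression of these genes. Of the 40 comparisons of a gene in a line, 37 had a positive log2 fold change and 19 passed an adjusted p of 0.05 by edgeR's quasi-likelihood test, all 19 higher in 3D. In LS174T 8 of the 10 genes were called higher, against 13.1% of all tested genes, and in HT29 6 were, against 21.1%. The counts were 3 in HCT116 (16.8%) and 2 in LS513 (13.7%). JUN and JUND were called in all 4 lines, and FOSL1 and IER3 in none. The median log2 fold change of the 10 genes was 1.52 in LS174T, 1.22 in HT29, 0.76 in HCT116 and 0.45 in LS513, while the median of all tested genes lay between 0 and 0.02. All 3 of the 3D libraries lay above all 3 of the 2D libraries for 8 genes in LS174T (20.9% of all tested genes), 7 in LS513 (23%), 6 in HCT116 (22.8%) and 6 in HT29 (27.3%). FOSL1 in LS174T was the single case with all 3D libraries below (17.6%).

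**Figure D1:**
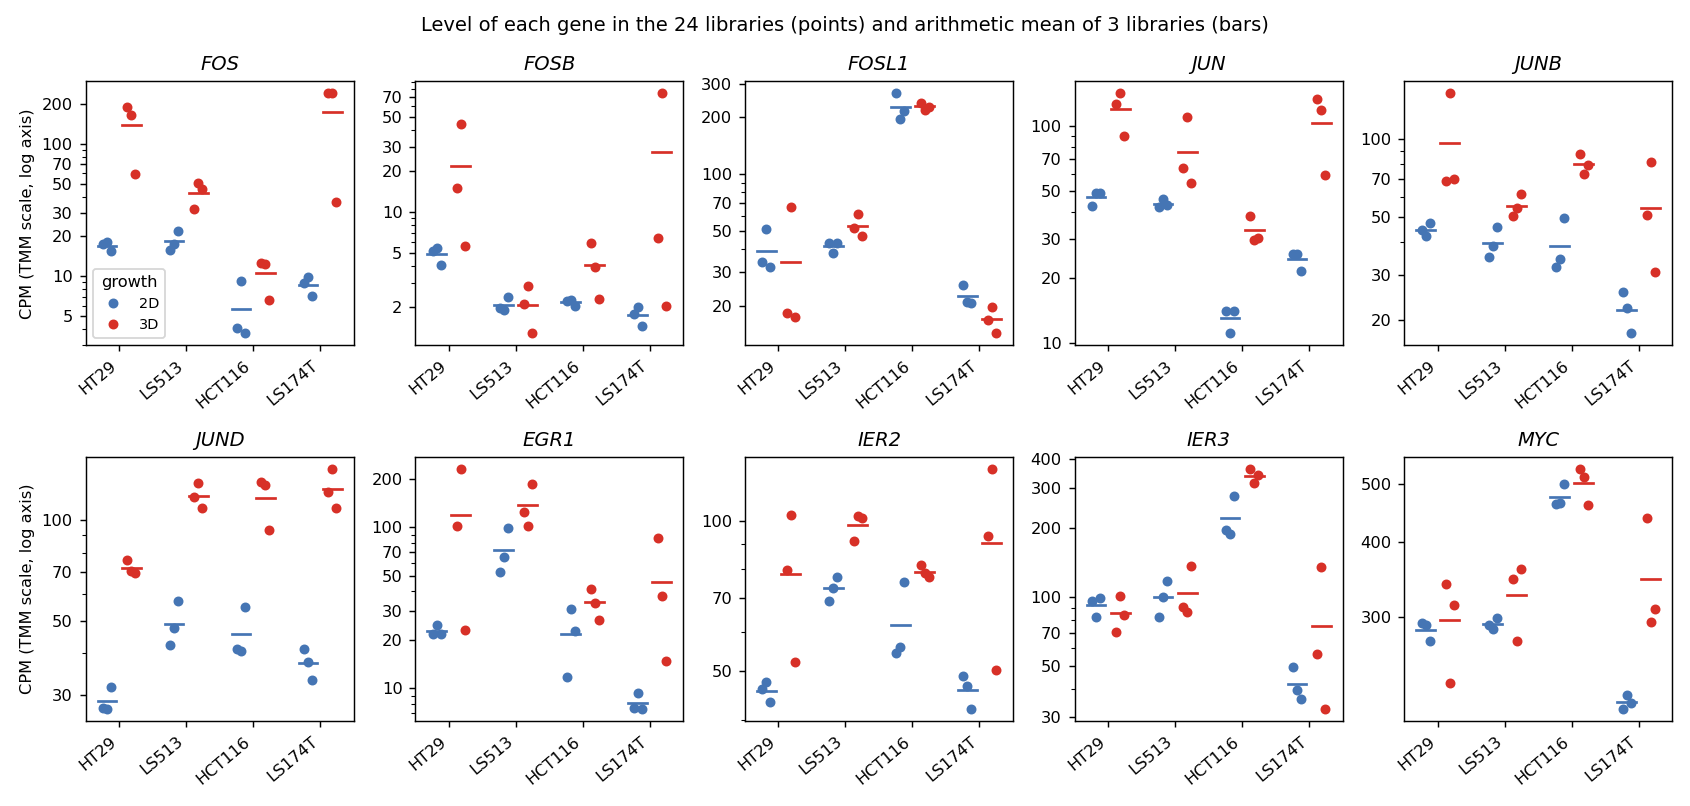
Level of each of the 10 genes in CPM (log axis, scaled per gene) in each library of the 4 lines, 2D in blue and 3D in red, with the arithmetic mean of 3 libraries as a bar. JUN, JUNB, JUND and IER2 had no overlap between 2D and 3D in any line, while the FOSL1 libraries of HCT116 lay above those of the other lines in both conditions.

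**Figure D2:**
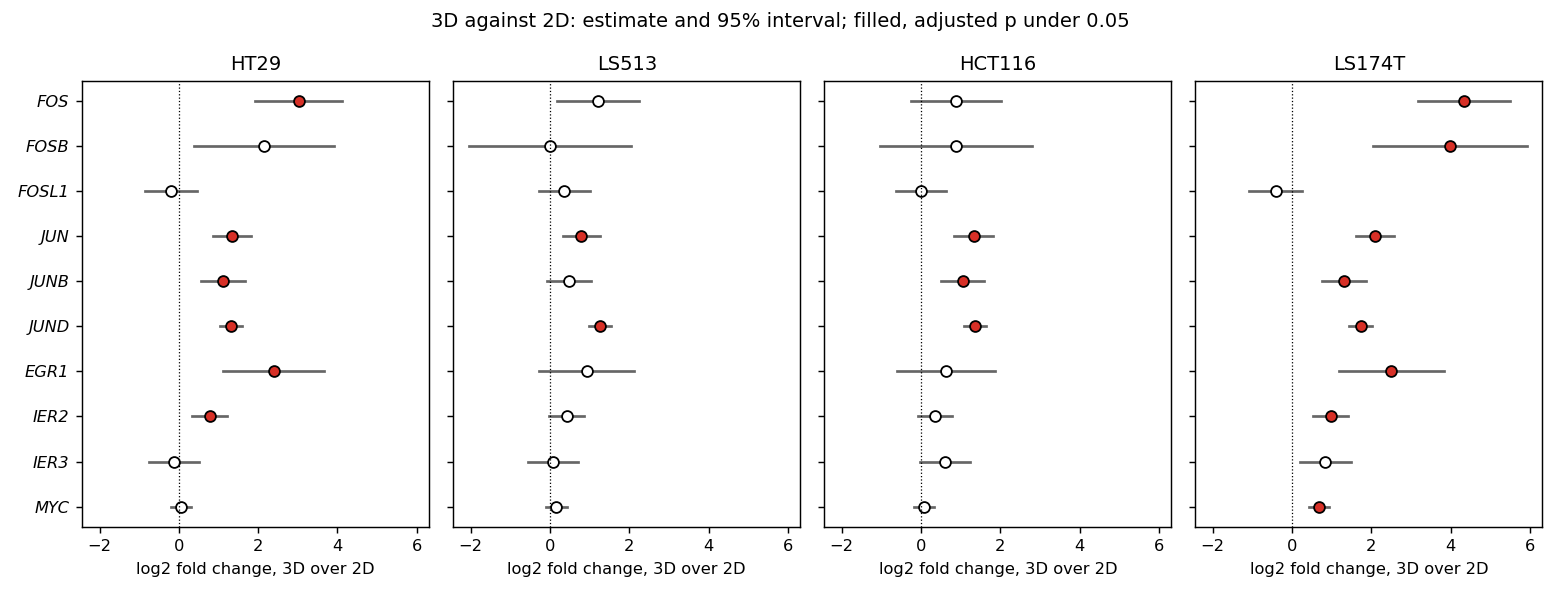
Log2 fold change of 3D over 2D (x axis) for each gene in each line, with the 95% interval as a bar and filled points where the adjusted p was under 0.05. FOS ranged from 0.89 in HCT116 to 4.33 in LS174T, and JUND from 1.27 to 1.73.

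FOS, the founding member of its family and a short-lived partner of JUN, had the largest mean growth difference of the 10 genes. In HT29 it was at 17.4, 18.03 and 15.5 CPM in 2D and at 191, 166 and 58.8 CPM in 3D. In LS174T it was at 8.82, 9.87 and 7.14 CPM in 2D and at 242, 242 and 36.2 CPM in 3D. The groups did not overlap in either line, and in each of them 1 of the 3D libraries (replicate 4 of HT29 and replicate 3 of LS174T) lay well under the other 2. The log2 fold change was 3.03 ± 0.56 (SE, 3 libraries against 3) in HT29, with an edgeR adjusted p of 0.000348, and 4.33 ± 0.59 in LS174T, with an edgeR adjusted p of 6.3e-05, a 20.1-fold difference. LS513 libraries went from 15.8, 17.4 and 22.0 CPM to 32.3, 50.3 and 45.3 CPM without overlap, and HCT116 libraries from 4.05, 9.20 and 3.69 CPM to 12.6, 12.3 and 6.65 CPM with overlap. In these lines the log2 differences were 1.21 (edgeR adjusted p of 0.111) and 0.89 (0.269), neither past the threshold. With the spread taken from the 6 LS513 libraries alone, the LS513 difference of FOS passed (log2 1.20, edgeR adjusted p of 0.00122, in a range of 5.39e-18 to 0.289 over 30 alternatives). That smallest value came from the fit with no filter on low counts. So did the smallest values of the alternatives given below for FOSB, JUN, JUNB, EGR1 and IER2.

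FOSB, which shares the dimerization and DNA-binding parts of FOS, had the lowest mean level per length of the 10 genes in each of the 8 groups, and its libraries ranged from 0.231 to 13.5 RPKM (CPM divided by exonic length in kilobases). In LS174T it was at 1.79, 1.99 and 1.45 CPM in 2D and at 6.41, 74.9 and 2.06 CPM in 3D, so that replicate 2 stood far above the other 3D libraries. The log2 fold change of 3.98 ± 0.99 passed the test (edgeR adjusted p of 0.00913), and without that library it was 1.29 and did not (0.238). That p-value was the highest of 30 alternatives, of which the smallest was 1.93e-83 with no filter on low counts. HT29 libraries were at 5.14, 5.44 and 4.11 CPM in 2D and at 15.1, 44.6 and 5.66 CPM in 3D, and the log2 difference of 2.14 missed the threshold (0.0678), as did those of HCT116 (0.89) and LS513 (0.01).

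FOSL1, which encodes FRA1, a longer-lived FOS family protein whose gene is an output of sustained ERK signalling, passed the test in no line. Its levels set HCT116 apart, at 270, 197 and 216 CPM in 2D and 239, 220 and 229 CPM in 3D. LS513 was at 43.2, 38.0 and 42.9 CPM in 2D and at 51.5, 61.0 and 46.6 CPM in 3D, and LS174T at 25.8, 20.9 and 20.6 and then 16.7, 19.7 and 14.2 CPM. HCT116 thus lay above every library of the other lines in both conditions, and the 2D mean was 10.1 times that of LS174T. In HT29 the 3D libraries were split, with 18.4 and 17.3 CPM in replicates 1 and 4 and 66.7 CPM in replicate 3, against 34.1, 51.3 and 32.0 CPM in 2D. The HT29 log2 difference was -0.20 (edgeR adjusted p of 0.675) with all libraries and -1.09 (0.000117) without replicate 3, where the p-values of 30 alternatives ran up to 0.939. The intervals of the 4 log2 differences ran from -1.08 to 1.00.

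Per length, the make-up of the FOS family differed by line and by growth condition. FOSL2, the remaining family member, is included. FOSL1 held 94.5% ± 1.15 (SD, n = 3) of the summed RPKM in HCT116 grown in 2D and 90.6% ± 1.55 in 3D. The mean share of FOS was 1.44% ± 0.954 and 2.41% ± 0.736 in the same HCT116 groups. It went from 14.7% ± 1.36 to 53.0% ± 13.9 in HT29, from 10.2% ± 1.46 to 56.3% ± 23.5 in LS174T and from 15.3% ± 2.20 to 22.8% ± 4.46 in LS513. The summed mean level of the family was 35.9 ± 5.59 RPKM in 2D and 79.6 ± 36.0 RPKM in 3D for HT29, and 127 ± 19.9 and 134 ± 5.70 RPKM for HCT116. These shares and sums are given as a description, without a test. FOSL2 itself, named after its values were seen, was called higher in 3D in all 4 lines, with log2 fold changes of 0.57 to 0.88.

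**Figure D3:**
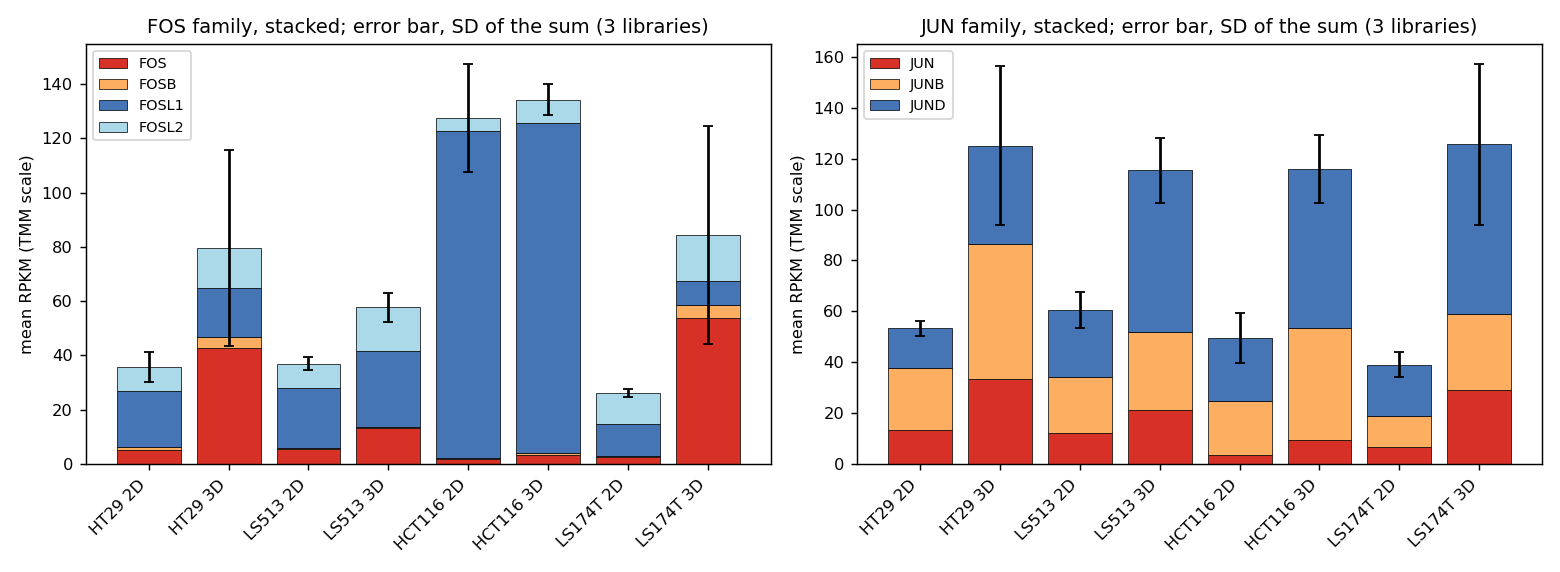
Mean level per length (RPKM, stacked) of the FOS family and of the JUN family in each group, with the SD of the family sum over 3 libraries as an error bar. FOSL1 made up 94.5% of the FOS family in HCT116 grown in 2D, and the JUN family sum was higher in 3D in each line, at 115 to 126 RPKM against 39.0 to 60.6 RPKM.

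The JUN family supplies the obligate partners of FOS proteins in AP-1. JUND, usually present in resting cells and less inducible by serum than JUN or JUNB, went from 27.4, 27.3 and 31.8 CPM to 75.8, 70.3 and 69.4 CPM in HT29 and from 42.5, 47.5 and 57.2 CPM to 117, 129 and 109 CPM in LS513. HCT116 libraries went from 41.3, 40.6 and 55.0 CPM to 130, 127 and 93.4 CPM, and LS174T libraries from 41.3, 37.6 and 33.4 CPM to 122, 142 and 109 CPM. No 2D library of a line overlapped its 3D libraries. The log2 fold changes were 1.32 ± 0.14, 1.27 ± 0.14, 1.36 ± 0.14 and 1.73 ± 0.14 (SE) in the order given, with edgeR adjusted p-values between 1.63e-08 and 7.62e-07. JUND kept its call in each line with each of the 24 libraries left out in turn.

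JUN, the strongest transactivator of the family, was at 42.9, 49.2 and 48.8 CPM in HT29 grown in 2D and at 126, 141 and 89.3 CPM in 3D. LS174T went from 25.6, 25.7 and 21.4 CPM to 132, 118 and 59.1 CPM, and HCT116 from 14.1, 11.1 and 14.1 CPM to 38.5, 29.9 and 30.5 CPM. LS513 went from 42.2, 46.0 and 43.2 CPM to 63.7, 110 and 54.5 CPM, where replicate 2 was far above the other 3D libraries. JUN was called higher in each line, with log2 fold changes of 1.34, 2.09, 1.33 and 0.79 in that order and edgeR adjusted p-values of at most 0.0177. The LS513 call did not hold without replicate 2 of the 3D libraries (log2 0.43, edgeR adjusted p of 0.235, with alternatives from 1.93e-08 to this value), nor without replicate 1 or replicate 3 of the 2D libraries.

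JUNB, a weaker activator that can oppose JUN, was at 44.6, 42.3 and 47.3 CPM in HT29 grown in 2D and at 68.8, 151 and 69.98 CPM in 3D. HCT116 went from 32.1, 34.6 and 49.5 CPM to 87.8, 73.4 and 79.3 CPM, and LS174T from 25.7, 22.2 and 17.8 CPM to 50.8, 81.3 and 30.7 CPM. The groups were apart in each, with log2 fold changes of 1.11, 1.05 and 1.31 (edgeR adjusted p of 0.00342, 0.00745 and 0.00280). In LS513 the libraries were apart too, at 35.0, 38.6 and 45.8 CPM against 50.4, 54.3 and 61.6 CPM, but the log2 difference of 0.48 missed the threshold (0.239) when the spread was shared over all lines and passed it (0.0143, with alternatives from 0.00276 to 0.461) on the 6 LS513 libraries. Part of JUNB's exonic sequence overlaps HOOK2, which had up to 2291 counts in a library.

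EGR1, whose promoter is shown above, is among the most serum-responsive genes known. HT29 libraries were at 21.8, 24.6 and 21.7 CPM in 2D and at 103, 232 and 23.0 CPM in 3D, and LS174T libraries at 7.56, 9.33 and 7.41 CPM and then 85.9, 37.3 and 14.8 CPM. The lowest 3D library of HT29 (replicate 4) lay within its 2D range, and in LS174T the groups were apart. The log2 fold changes of 2.39 ± 0.65 and 2.51 ± 0.67 (SE) passed the test, with edgeR adjusted p-values of 0.00755 and 0.0143. Without replicate 3 of the HT29 3D libraries the log2 difference was 1.52 (0.0593), and the LS174T call was lost without replicate 1 of the 3D libraries (1.68, 0.0795) and without replicate 1 or replicate 3 of the 2D libraries. Over 30 alternatives the p-values ran from 4.61e-71 to 0.0971 in HT29 and from 4.77e-72 to 0.0795 in LS174T, the smallest with no filter on low counts. LS513 had the highest 2D mean of EGR1, with libraries at 52.8, 65.3 and 99.3 CPM in 2D and 125, 103 and 185 CPM in 3D. HCT116 was at 11.8, 31.3 and 22.6 CPM and then 41.6, 34.1 and 26.7 CPM, with overlap, and neither LS513 (log2 0.93, 0.314) nor HCT116 (0.64, 0.487) passed.

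IER2, a small nuclear protein with a single coding exon, was called higher in HT29 and LS174T. HT29 went from 46.0, 47.6 and 43.4 CPM to 79.8, 103 and 52.3 CPM and LS174T from 48.9, 46.7 and 42.0 CPM to 93.3, 127 and 50.3 CPM. The log2 fold changes were 0.78 and 0.98 (edgeR adjusted p of 0.00802 and 0.00368), and each call was lost without the highest 3D library (0.0534 and 0.0549, with alternatives from 1.21e-09 to 0.0534 in HT29 and from 3.21e-13 to 0.0768 in LS174T). LS513 libraries, at 69.0, 73.4 and 77.2 CPM and then 90.9, 102 and 101 CPM, and HCT116 libraries, at 54.4, 55.9 and 75.4 CPM and then 81.5, 78.5 and 77.0 CPM, did not overlap but missed the threshold, with log2 differences of 0.42 and 0.35.

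IER3, a stress-inducible regulator of apoptosis and ERK signalling, passed in no line. It was highest in HCT116, at 197, 189 and 277 CPM in 2D and 362, 314 and 339 CPM in 3D, which did not overlap and differed by log2 0.62 (edgeR adjusted p of 0.160). HT29 libraries, at 96.5, 82.2 and 99.2 CPM and then 70.4, 101 and 83.5 CPM, and LS513 libraries, at 82.1, 100 and 117 CPM and then 90.6, 86.3 and 137 CPM, overlapped. LS174T was at 49.7, 39.6 and 36.2 CPM in 2D and at 56.4, 136 and 32.6 CPM in 3D, and the log2 difference of 0.84 (0.0706) was 0.10 without replicate 2 of the 3D libraries. Replicate 2 was thus the only 3D library of LS174T far above the 2D range.

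MYC, a transcription factor that drives growth and ribosome production, lies at chr8:127735434-127741434 on the plus strand (ENSG00000136997), and its libraries ranged from 211 to 530 CPM, or from 70.2 to 177 RPKM per length. In LS174T it was at 211, 223 and 215 CPM in 2D and at 439, 294 and 309 CPM in 3D, without overlap. The log2 fold change there was 0.68 ± 0.13 (SE), with an edgeR adjusted p of 0.000971, and it stayed called with each library left out (0.48 to 0.80). The other lines overlapped: HT29 at 293, 290 and 274 CPM and then 341, 233 and 314 CPM, LS513 at 290, 286 and 299 CPM and then 347, 273 and 360 CPM, and HCT116 at 462, 464 and 500 CPM and then 530, 513 and 460 CPM. Their log2 differences were 0.05, 0.16 and 0.08, with 95% intervals between -0.21 and 0.42.

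Averaged over the 4 lines, 8 of the 10 genes were called higher in 3D, against 26.6% of all tested genes. The mean log2 differences were 2.37 for FOS, 1.76 for FOSB, 1.62 for EGR1, 1.42 for JUND, 1.39 for JUN, 0.99 for JUNB, 0.63 for IER2 and 0.24 for MYC. FOSL1 (-0.06, edgeR adjusted p of 0.860) and IER3 (0.35, 0.0787) did not pass. With each library left out in turn, the count of calls in either direction was 8 or 9. The 9 without replicate 3 of HT29 grown in 3D included FOSL1, called lower (log2 -0.29, edgeR adjusted p of 0.00540).

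Whether the growth difference itself varied between lines was tested by an interaction. FOS (edgeR adjusted p of 0.0103) and MYC (0.0492) passed, 2 of the 10 genes against 17.1% of all tested genes. JUN narrowly missed the threshold (0.0507), and the other 7 lay between 0.184 and 0.623. FOS was called with each of the 24 libraries left out, and MYC with 4 of the 24. The count of 2 genes was 5 without replicate 3 of LS174T grown in 3D and 4 without replicate 3 of HT29 grown in 3D, and ranged from 1 to 5 over the 24 libraries left out. Between pairs of lines, the log2 growth difference of FOS in LS513 minus that in LS174T was -3.12 ± 0.76 (SE, edgeR adjusted p of 0.0264), in a pair where 3.62% of all tested genes passed. For HCT116 minus LS174T it was -3.44 ± 0.80 (0.0156), against 4.75% of all tested genes. JUN had a larger growth difference in LS174T than in LS513, with -1.29 ± 0.34 for LS513 minus LS174T (0.0310). For MYC, HT29 minus LS174T was -0.63 ± 0.19 (0.0444), against 6.65% of all tested genes. No other gene passed in any of the 6 pairs.

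Between lines, 9 of the 10 genes differed in 2D and 9 in 3D by the edgeR test over all 4 lines as did 91.7% of all tested genes in either condition. The exceptions were FOSB in 2D and IER2 in 3D. Between pairs of lines in 2D, 60.6% of all tested genes differed between HT29 and LS513, 68.3% between LS513 and HCT116 and 68.3% between HCT116 and LS174T, and in 3D the shares were 61.9% between HT29 and LS513, 68.5% between LS513 and HCT116 and 67.2% between HCT116 and LS174T. FOSL1, IER3 and MYC had their highest mean in HCT116 in both conditions, and each differed there from the next line by the edgeR test. In 2D the next line was LS513, which lay lower by log2 2.46 for FOSL1, 1.14 for IER3 and 0.70 for MYC. FOS and JUN had their lowest mean in HCT116 in both conditions. For JUN, HCT116 lay below the next line by log2 0.89 in 2D (edgeR adjusted p of 0.00297) and 1.20 in 3D (0.000117), whereas for FOS the step to LS174T in 2D did not pass (0.60, 0.369) and the step to LS513 in 3D did (2.02, 0.00324). LS513 and HT29 were neighbours whose difference did not pass for FOS, FOSL1, JUN, JUNB, IER3 and MYC in 2D. EGR1 was highest in LS513 in both conditions, by log2 1.67 over HT29 in 2D (0.0318) and by 0.21 in 3D (0.801). JUND was lowest in HT29 in both, at a mean of 28.8 ± 2.56 CPM in 2D and 71.8 ± 3.45 CPM in 3D.

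Of the 10 genes, 8 varied more between libraries of a group than most tested genes, and JUND and MYC varied less. The pooled within-group SD on the log2 scale was 1.11 for FOSB, 0.83 for EGR1 and 0.74 for FOS, and between 99.4% and 99.9% of tested genes had a smaller one. JUND and MYC were at 0.18, with 41.3% and 38.3% of tested genes below. The median was 0.41 for the 10 genes, 0.21 for all tested genes and 0.16 for the 11099 tested genes with a mean level at least that of the lowest of the 10. Set against that last median, JUND and MYC varied more as well. In some groups 1 library was the highest or lowest for most of the genes, and in others the genes were split. In HCT116 grown in 3D, replicate 1 was the highest library for all 10 genes, and its mitochondrial transcripts took 6.40% of counts, against 1.14% to 2.45% in the other HCT116 libraries. Replicate 3 of LS174T grown in 3D was the lowest for 9 genes, and replicate 4 of HT29 grown in 3D, summed over 7 technical replicates where the other libraries had 8, was the lowest for 7. Replicate 2 of LS174T grown in 3D was the highest for 6 genes, and its 100 most abundant genes took 21.8% of counts, against 17.9% and 16.6% in the other 2 libraries of the group. MYC went the other way, as the lowest in that library and in replicate 3 of HT29 grown in 3D, which was the highest for 7 genes. In LS174T grown in 2D the highest level was in replicate 1 for 5 genes and in replicate 2 for 5, and in LS513 grown in 3D it was in replicate 2 for 6 and in replicate 3 for 4. The part of these library features in the results was not tested. JUN, JUNB and JUND stayed called in HCT116 without replicate 1 of the 3D libraries.

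**Figure D4:**
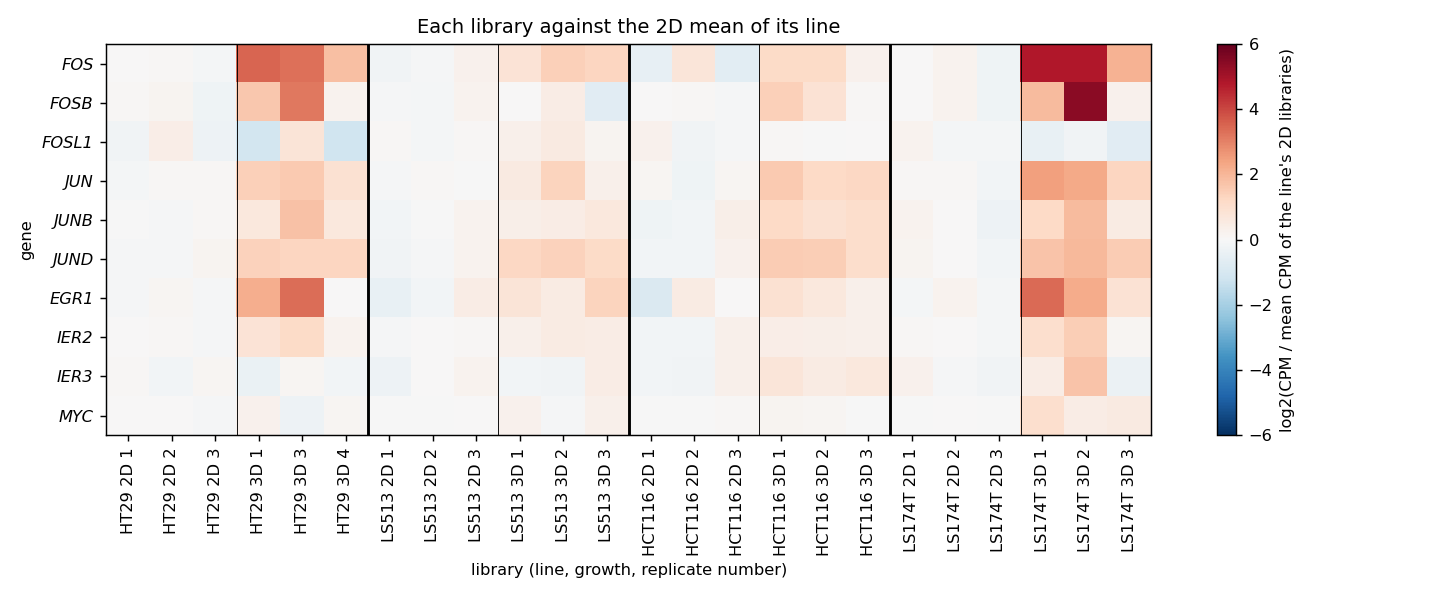
Level of each gene in each library, as log2 of CPM over the mean of its line's 2D libraries (colour), with thick lines between cell lines and thin lines between growth conditions. FOS, FOSB and EGR1 differed most between the 3D libraries of HT29 and of LS174T, where replicates 4 and 3 were closest to 2D, while JUND was above the 2D mean in all 12 3D libraries.

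The gene most like FOS over the 24 libraries was JUN, with a Pearson r of log2 CPM of 0.93, followed by CCDC183 (0.89) and DELE1 (0.87). FOS had an r of 0.71 with FOSB, 0.62 with EGR1 and -0.56 with FOSL1. The genes most like MYC were USP2-AS1 (0.90), ADM (0.89) and OCIAD1 (0.88), and among the 10 genes IER3 (0.78) and FOSL1 (0.71) were nearest to it. These values describe 24 libraries that share lines and growth conditions, so the points are not independent.

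Genes with related roles were counted by the mean difference over the 4 lines, in which 26.6% of all tested genes were called higher and 23.9% lower and the median of all was log2 0.04. Of 30 other immediate early genes, 22 were called higher in 3D and 0 lower, with a median log2 difference of 0.58, and by line 14 were higher and 0 lower in LS174T, 16 and 1 in HT29, 9 and 0 in HCT116 and 14 and 2 in LS513. Their median log2 difference was 0.85, 0.67, 0.41 and 0.51 in that order. Of all tested genes, 13.1%, 21.1%, 16.8% and 13.7% were called higher in these lines and 9.15%, 19.6%, 12.3% and 9.9% lower. The 17 calls in HT29 were 11 without replicate 2 of its 2D libraries. KLF4, a zinc finger factor of epithelial differentiation, was higher in each line by log2 1.14 to 1.46, and MAFF, a small MAF protein, by 1.22 to 1.49. ATF3, a stress-induced factor that pairs with JUN, was higher in each line by log2 1.00 to 2.62. It and MAFF belong also to the list of 13 other AP-1 family genes, of which 11 were tested, with 4 called higher and 2 lower (ATF7 and MAFG, by log2 -0.34 and -0.31) and a median of 0.24.

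Of 14 ERK feedback and output genes, 5 were called higher and 5 lower in the mean of the lines, with a median log2 difference of 0.06. ETV4, an ETS factor, was higher in LS174T by log2 1.13 and in HT29 by 0.26 and lower in HCT116 by log2 -0.28, and DUSP5, an ERK phosphatase, was higher in LS513 by 1.34, in HCT116 by 0.58 and in LS174T by 0.53. ETV5 was lower in 3 lines, with log2 differences of -0.40 to -0.74, and PHLDA1 was lower in HT29 (-1.30). Of 16 ERK and JNK kinases and SRF cofactors, 3 were higher and 9 lower, with a median of -0.18. MAPK3, which encodes ERK1, was higher in HT29, LS513 and HCT116 by log2 0.64 to 1.13, and MAP2K2, which encodes MEK2, by a mean of 0.23, while MAPK9, which encodes JNK2, and ELK4, an SRF partner, were lower by means of -0.32 and -0.70.

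Around MYC, 7 of 12 partners and antagonists were called higher and 1 lower, with a median log2 difference of 0.19. The 2 with the smallest p were MXD4 and MXI1, which compete with MYC for its partner MAX, with log2 differences of 0.81 to 1.73 and of 0.66 to 1.26 and a call in each line. MGA, another MAX partner, was lower in each line by log2 -0.52 to -0.77. Of 30 ribosome biogenesis and growth genes known to be activated by MYC, 21 were lower in 3D and 1 higher in the mean of the lines, with a median of -0.21. The counts called lower were 17 in HT29, where 19.6% of all tested genes were lower, 14 in HCT116 (12.3%), 10 in LS513 (9.9%) and 3 in LS174T (9.15%). MYC itself was called higher in LS174T, and a link between these counts and MYC was not tested. The 10 in LS513 were 6 without replicate 1 or replicate 2 of its 2D or of its 3D libraries. CAD, which starts pyrimidine synthesis, was lower by log2 -0.41 to -1.04 and NOLC1, a nucleolar chaperone, by -0.33 to -0.52, in each line, and FBL, the box C/D methyltransferase, was higher in LS174T (0.48).

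Of 10 heat shock genes, which respond to stress of other kinds, 9 were called lower in 3D and 1 higher in the mean of the lines, with a median log2 difference of -0.42. By line, 8 were lower in HT29 (19.6% of all tested genes), 8 in HCT116 (12.3%), 3 in LS513 (9.9%) and 3 in LS174T (9.15%). The calls in HT29 were 4 without replicate 2 of the 2D libraries or replicate 1 or 4 of the 3D libraries. They were 3 with a replicate block, which in HT29 compared only replicates 1 and 3. Those in HCT116 were 5 without replicate 1 of the 2D libraries or replicate 1 or 2 of the 3D libraries. HSPH1 was lower in each line, by log2 -0.95 to -1.58, HSP90AB1 by a mean of -0.57, and HSPB1 was higher by a mean of 0.34. The heat shock genes summed to 5575 to 6641 CPM in HT29 grown in 3D and to 9245 to 11415 CPM in 2D, and in HCT116 to 9509 to 12411 and 15799 to 16930 CPM. In LS513 the sums were closer, at 7995 to 8165 and 9567 to 10902 CPM, and in LS174T they overlapped, at 7744 to 9989 and 9396 to 10450 CPM.

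**Figure D5:**
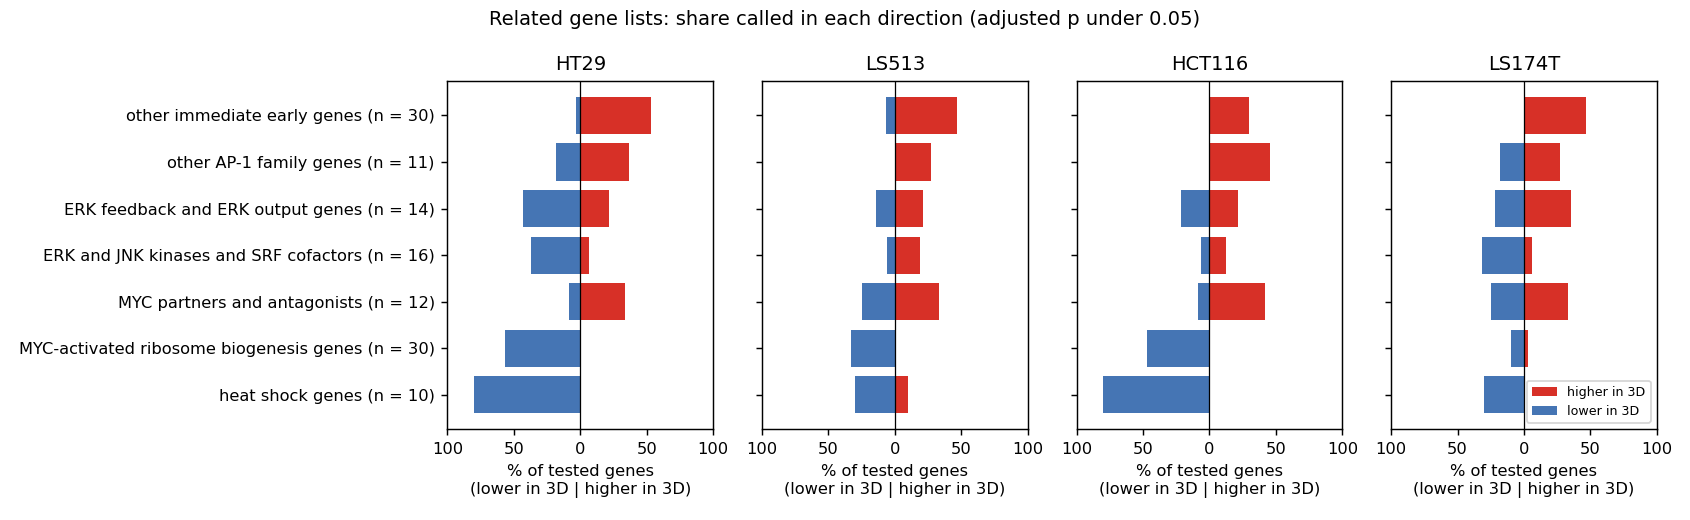
Percent of the tested genes of each related list that were called higher (right, red) or lower (left, blue) in 3D in each line at an adjusted p under 0.05, with the number tested beside each name. Other immediate early genes were called higher more often than lower in each line. MYC-activated ribosome biogenesis and heat shock genes were called lower more often than higher in each line. In LS174T these were 3 of 30 and 3 of 10, against 9.15% of all tested genes, and the 3 of 30 was near that share.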

How the data were processed

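RNA sequencing libraries were selected by poly(A) and strand specific. For every technical replicate the authors deposited a table of raw read counts, made per the labels with bcl2fastq 2.18.0.12, Trim Galore 0.4.1, STAR and HTSeq 0.5.3. The labels name the build hg19 and the study's methods an Ensembl release 91 annotation. Since 57980 of the 58243 identifiers are in GENCODE 29, positions are given on GRCh38. The 191 count files were summed to 24 libraries (8 technical replicates each, 7 for HT29 3D replicate 4). Tests used edgeR 4.0.16 (R 4.3.3), with filterByExpr, TMM and a robust quasi-likelihood model holding 8 group coefficients over the 24 libraries, and Benjamini-Hochberg adjustment over 19387 genes and a threshold of 0.05. Intervals are 95%, from the SE. Groups were taken from the labels. The members and lists were chosen with earlier results of these data known. Genes named outside the 10 were the 2 higher and the 2 lower with the smallest p in the mean difference of each list, the 3 most like FOS and MYC, and genes whose exons overlap a member. FOSL2 was added to complete its family.

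Alternatives were DESeq2 size factors, no filter, a replicate block, dropping the technical replicate d, the 6 libraries of a line, the test of DESeq2 1.42.0, other fold limits and leaving out each library. On simulated data with 200 changed genes of 19387 in HT29, edgeR recovered 40% at 1.5-fold, 80% at 2-fold, 98% at 4-fold and 100% at 8-fold, with 8 false calls. The changed genes were drawn at random among well-counted genes. These rates therefore need not hold for FOS, FOSB and EGR1, which varied more between libraries than nearly all tested genes. Library totals of 18723942 to 34277421 counts set the precision, and floors cover counting error only.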

Additional observations from a re-analysis of the deposited data

Results flagged for a closer look

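The 3D against 2D difference of FOS was not the same in the 4 lines (interaction test of edgeR, adjusted p of 0.0103), with log2 fold changes of 4.33 in LS174T, 3.03 in HT29, 1.21 in LS513 and 0.89 in HCT116. The difference of MYC also varied between lines (edgeR adjusted p of 0.0492), with 0.68 in LS174T and 0.05 to 0.16 in the others. For FOS the test passed without each of the 24 libraries, with adjusted p-values of 0.000186 to 0.0320. For MYC it passed without 4 of them and missed the threshold without the other 20, with a range of 0.0136 to 0.221.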

How the results depend on the processing

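Of the 50 log2 fold changes of a gene in a line or in the mean of the lines, 24 kept their direction and side of the threshold under every alternative. The counts of called genes in the mean of the lines, of the 10 and of each list, stayed within 1.5 times, and so did those between lines in 2D and 3D. Counts of the lists within a line moved further. Other immediate early genes went from 9 to 16 in HCT116 with all genes of at least 1 count, and from 17 to 11 in HT29 and from 14 to 9 in LS174T with the 6 libraries of the line. MYC-activated genes in LS513 went from 10 to 6 with all genes of at least 1 count and to 16 with the line's own libraries, which in LS174T took them from 4 to 0 by edgeR (the test of DESeq2 over all libraries gave 6) and heat shock genes from 3 to 1. Heat shock genes in HT29 went from 8 to 3 with the replicate block, which in HT29 compared only replicates 1 and 3. The count was 7 in LS513 and 5 in HCT116 with the 6 libraries of that line alone. With all genes of at least 1 count the calls were 7 in LS513, 7 in HCT116 and 9 for the interaction between lines, and the cause was not tested. The share of all tested genes called under each alternative of this section is not given. These counts therefore describe the settings and are not results about the 10 genes. The interaction count was 1 with the size factors of DESeq2 (MYC, adjusted p of 0.0592), 1 without technical replicate d (MYC, 0.0520) and 4 with the test of DESeq2. A log2 fold change under -0.5 or over 1.5, as the study used, left 5 calls in LS174T, 2 in HT29, 0 in HCT116 and 0 in LS513, and a limit of 1 in either direction left 1 in LS513. Leaving out 1 library, and counting both directions, gave 6 to 9 calls in LS174T, 5 to 7 in HT29, 3 to 4 in HCT116, 1 to 3 in LS513 and 1 to 5 for the interaction. The 5 in HT29, without replicate 3 of its 3D libraries, included FOSL1 called lower (log2 -1.09, edgeR adjusted p of 0.000117).

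The labels do not say whether equal replicate numbers in 2D and 3D mark cultures handled together. The correlations of the 11 pairs' deviations ran from -0.164 to 0.113 and 1 exceeded 0.1. With 3 libraries per group these values cannot decide whether libraries were paired. With the replicate block the calls were 8 in LS174T, 7 in HT29, 3 in HCT116, 3 in LS513, 8 in the mean and 2 for the interaction (JUN, adjusted p of 0.0264, in place of MYC, 0.122). In HT29 only replicates 1 and 3 were present in both conditions. The block therefore left replicate 2 of 2D and replicate 4 of 3D out of the HT29 difference, so its HT29 results do not show an effect of pairing alone. Estimates near 0 changed sign, and none was called with the changed sign. Without a change of sign, FOSL1 was called lower when replicate 3 of HT29 grown in 3D was left out. This held in HT29 (log2 -1.09, edgeR adjusted p of 0.000117) and in the mean (-0.29, 0.00540). With the block, FOSL1 in HT29 was 0.0905 and in the mean 0.0122, MYC in HT29 -0.00744 and FOSB in LS513 -0.0280. With the 6 libraries of a line, FOSB in LS513 was -0.00841 and FOSL1 in HCT116 -0.0113, and with all genes of at least 1 count FOSL1 in HCT116 was -0.0204. With 1 library left out, the range was -1.09 to 0.14 for FOSL1 in HT29, -0.0848 to 0.15 for FOSL1 in HCT116, -0.29 to 0.0201 for FOSL1 in the mean, -0.22 to 0.0259 for IER3 in HT29, -0.17 to 0.20 for IER3 in LS513, -0.0299 to 0.24 for MYC in HT29 and -0.30 to 0.26 for FOSB in LS513.

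With 3 libraries per group, an exact permutation test cannot go below 0.1, so calls rest on the spread shared over all groups. FOSB, at 37 counts in its lowest library, is the least precise of the 10 genes by counting error.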

Other observations

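Some markers of the colon epithelium moved with growth format beside the 10 genes. KRT19 was higher in 3D in each line, by log2 0.66 to 1.52, and CDX2, a transcription factor of intestinal identity, in HT29 (2.25), LS513 (0.60) and LS174T (0.79). KRT18 was lower in HT29 (-0.41). Of the blood cell markers, CD68, a lysosomal protein that epithelial cells also make, was higher in each line by log2 0.92 to 2.01. LYZ, which colon tumour cells can express, was higher in 3 lines and reached 2660 CPM in HT29. PTPRC and CD3E stayed at or under 2 counts.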
